A study of Mus musculus with 11 samples.

Results

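Elastin, fibrillin-1 and 8 proteins that build or decorate elastic fibres and microfibrils were examined in cells of the periostin lineage in the naive mouse mammary gland. The 10 genes, Eln, Fbn1, Fbln1, Fbln2, Fbln5, Mfap4, Mfap5, Emilin1, Efemp1 and Efemp2, were chosen by target name in the deposited probe table. Each had 1 probe, so they made up 10 of 19962 endogenous targets (19965 probes). Transcripts were counted by digital spatial profiling, in which ultraviolet light frees the barcodes of bound probes from a chosen area of a section for sequencing. The glands were fixed in paraformaldehyde, frozen and naive, and came from 3 periostin lineage-tracing mice, whose strain, age and sex the labels do not state. In such mice ZsGreen marks cells that express periostin or once did, and the ZsGreen-positive cells of each region were collected, so every region shares this reporter. Regions were picked by 2 stains. The 6 Pdpn-adjacent regions (2, 3, 4, 7, 8 and 11) lay by podoplanin-stained lymphatic vessels, and the 5 SMA-adjacent regions (1, 5, 6, 9 and 10) by blood vessels and ducts stained for smooth muscle actin. The labels tie no region to a mouse. With more regions than mice in each group, some share a mouse, which can make any p over regions too small.

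Elastic fibres let vessels, ducts and skin recoil. Fibrillin molecules assemble into microfibrils, and tropoelastin, the product of Eln, is laid on that scaffold and cross-linked by lysyl oxidases with the help of fibulins. EMILIN-1 sits where elastin meets the microfibril, and MFAP4 and MFAP5 are microfibril-associated proteins. In vessel walls elastin is made by smooth muscle cells and fibroblasts, and in the stroma around ducts by fibroblasts.

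Total endogenous counts ran from 22757 to 2271664 in Pdpn-adjacent and from 760761 to 3086323 in SMA-adjacent regions. Regions 2, 3 and 11 held 22757, 81760 and 30316 counts, so that the table's minimum, 1 count, stood there at 37.5, 12.3 and 34.2 CPM (counts on a scale shared by all regions after TMM adjustment of library size). In those regions 8, 3 and 6 of the 10 members were at a count of 1. Of 10 fibroblast markers, 10, 2 and 6 were at a count of 1 in regions 2, 3 and 11, and the summed level of the list was 375 to 2314 CPM in Pdpn-adjacent and 1818 to 4581 CPM in SMA-adjacent regions. The labelled stromal identity therefore could not be read in region 2. Of 6 lymphatic endothelial markers, 0 had a median above 2 times background in either group, and their sum was 185 to 299 CPM in Pdpn-adjacent and 284 to 313 CPM in SMA-adjacent regions.

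Most members were near background. Background was the geometric mean of 210 negative-control probes in the same region, and a value was counted as above the floor when it exceeded their mean plus 2 SDs on the log2 scale. Of the 110 member values, 32 were above the floor, 12 of 60 in Pdpn-adjacent and 20 of 50 in SMA-adjacent regions. By region, 0 to 4 of the 10 members passed in Pdpn-adjacent and 2 to 8 in SMA-adjacent regions. Of all 19965 endogenous probes, 553 to 4478 passed in Pdpn-adjacent and 1754 to 3838 in SMA-adjacent regions. In regions 2 and 11 a count of 2 was enough to pass, and 2 and 4 of the 12 Pdpn-adjacent values came from there. Each gene is read by 1 probe of 35 to 42 bases, so levels do not scale with gene length, but probes can differ in efficiency and the order of levels below is an order of probe signals.

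In SMA-adjacent regions Eln led, with a median of 5.92 times background (range 4.16 to 11.7). Fbln2, which encodes fibulin-2, a large fibulin of basement membranes and elastic fibres, followed at 3.40 (2.11 to 5.10). Emilin1 stood at 2.46 and Fbln5, which encodes a small fibulin that tethers elastin to microfibrils, at 2.34 times background. The other 6 had medians from 1.91 for Efemp1 (fibulin-3) down to 1.55 for Fbn1, and for every pair of neighbours in this order the ranges over regions overlapped. In Pdpn-adjacent regions the order of medians was different, but regions with few counts set part of it. Efemp1 and Emilin1 were at medians of 2.01 and 1.98, Eln at 1.84 and Efemp2, which encodes fibulin-4, at 1.83 times background, whereas Fbln2 was at 1.18 and Fbln5 was lowest at 0.921. The medians of 1 member in Pdpn-adjacent and 4 members in SMA-adjacent regions exceeded 2 times background, where 11.6% and 17.9% of all endogenous probes did. In regions 2, 3 and 11, 8, 3 and 6 of the 10 members were at a count of 1. So were 90.0%, 18.1% and 77.6% of all probes. Depth thus limits the Pdpn-adjacent medians, and the 2 groups are not alike in this count. The Eln median lay between 1.78 in region 11 and 1.90 in region 2, each from 2 counts. That of Efemp1 lay between 1.78 in region 11 and 2.25 in region 3, from 2 and 6 counts. In the deeper regions 4, 7 and 8 Eln stood at 1.50, 4.66 and 4.73 times background, and Efemp1 at 2.48, 1.16 and 2.94. Fbln2 stood there at 1.41, 3.93 and 2.81, and Emilin1 at 2.07, 2.04 and 1.92. Eln was the highest member in regions 7 and 8, and Efemp1 in region 4.

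**Figure D1:**
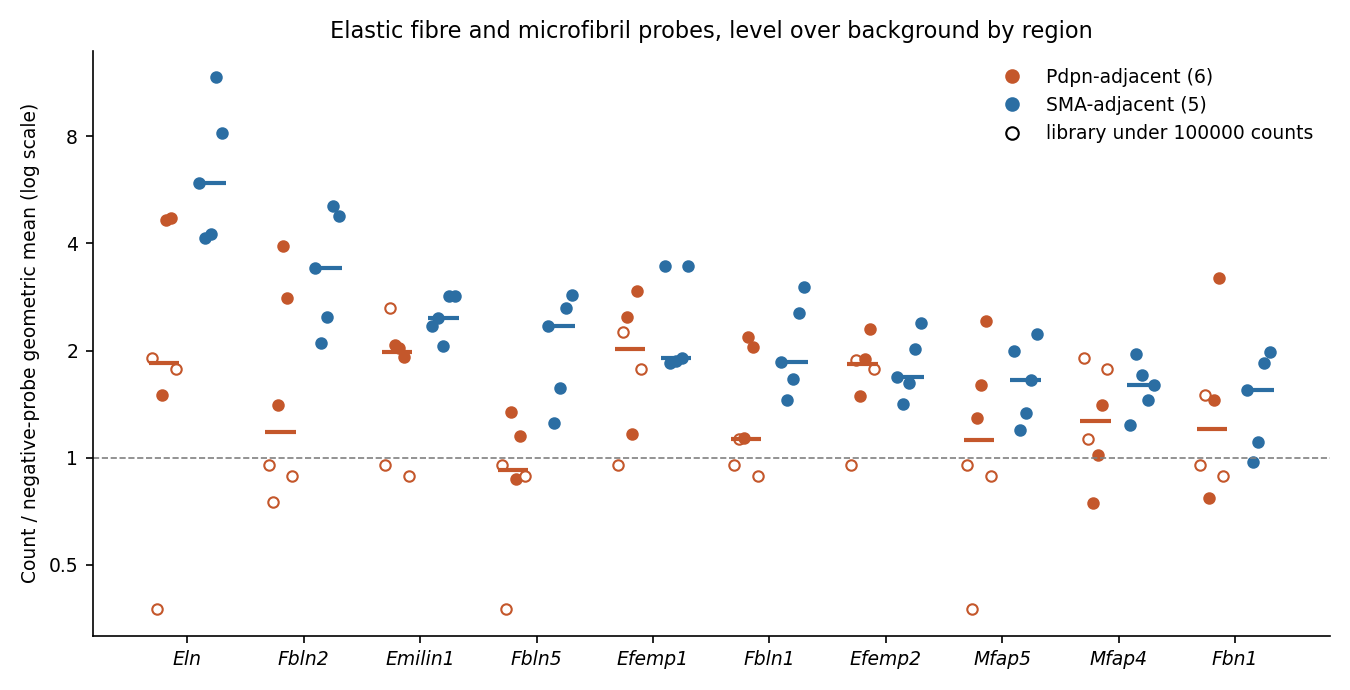
Level over background of the 10 members in every region (vertical axis: count divided by the negative-probe geometric mean, log scale; bars: group medians; open circles: libraries under 100000 counts). Eln in SMA-adjacent regions lies between 4.16 and 11.7 times background, and the open Pdpn-adjacent points of regions 2, 3 and 11 rest on single-digit counts.

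The question put to these regions was how periostin-lineage cells near lymphatic vessels differ from those near blood vessels and ducts. With edgeR's quasi-likelihood test over 19935 probes and Benjamini-Hochberg adjustment, 0 of the 10 members passed an adjusted p of 0.05, where 0.01% of all probes passed (2, both higher in Pdpn-adjacent regions). DESeq2, which gave no adjusted p for 6 of them, and limma-voom also called 0 members. At an unadjusted p under 0.05, 5 members had lower fitted levels in Pdpn-adjacent regions (Eln, Mfap4, Fbln2, Fbln5 and Fbln1), against 3.19% of all probes in that direction, and 0 had higher ones, against 2.84%. All 10 fitted log2 fold changes (Pdpn-adjacent minus SMA-adjacent) were below 0, as were 48.8% of all probes. The median over members was -0.41 and that over all probes 0.01. The members were chosen with earlier results of these data known, so these counts describe the list. For 0 of the 10 members did all Pdpn-adjacent regions lie below all SMA-adjacent ones, as they did for 0.391% of probes, and for 0 did all lie above, as for 0.446%. By exact permutation of mean log2 CPM, 4 members (Eln, Fbln5, Fbln2 and Fbln1) had an unadjusted p under 0.05 with lower means in Pdpn-adjacent regions, against 3.89% of probes, and 0 passed after adjustment over all probes. These p-values treat regions as independent, though some share a mouse. In such bulk regions fewer cells of a type and less RNA per cell cannot be told apart.

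**Figure D2:**
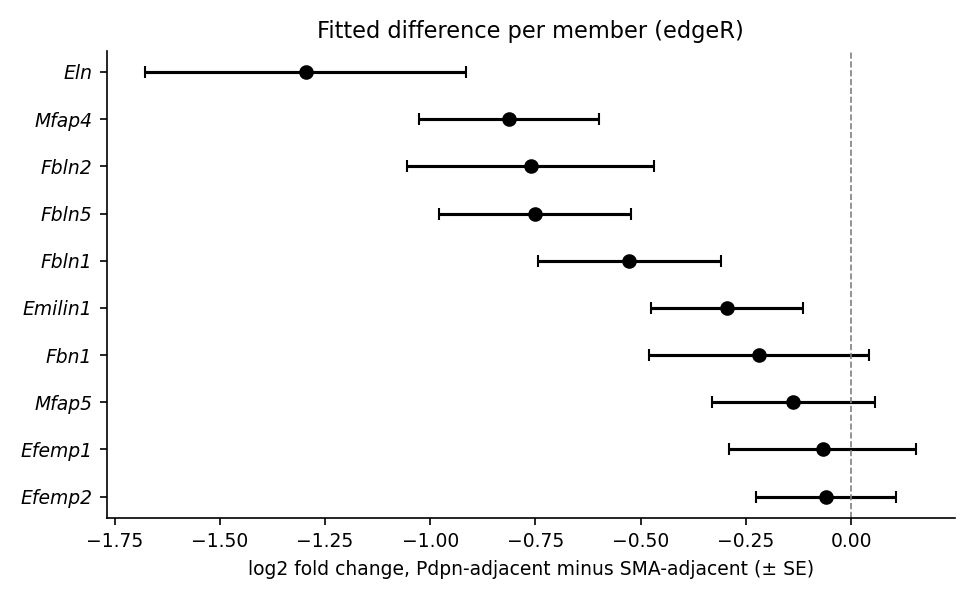
Fitted log2 fold change of each member, Pdpn-adjacent minus SMA-adjacent, with the standard error of the edgeR fit (11 regions). Eln lies farthest from 0 at -1.30, and Efemp2 and Efemp1 lie nearest at -0.06 and -0.07.

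Eln, which encodes tropoelastin, had the highest probe signal of the members beside blood vessels and ducts. Its level in Pdpn-adjacent regions 2, 3, 4, 7, 8 and 11 was 75.0, 12.3, 49.5, 149, 123 and 68.5 CPM, from raw counts of 2, 1, 115, 32, 37 and 2. SMA-adjacent regions 1, 5, 6, 9 and 10 held 177, 142, 135, 349 and 239 CPM, from 134, 462, 273, 1012 and 323 counts. The groups overlapped through region 7, which lay above SMA-adjacent regions 5 and 6, while the other 5 Pdpn-adjacent regions lay below every SMA-adjacent one. Eln averaged 79.5 ± 49.5 CPM (SD, n = 6) in Pdpn-adjacent and 208 ± 88.9 CPM (SD, n = 5) in SMA-adjacent regions. Its log2 fold change was -1.30 ± 0.38 SE (edgeR's adjusted p = 0.403; exact permutation p = 0.0152, adjusted p = 0.610 over all probes, two-sided). With regions of a shared mouse in the test, that p can be too small. The Eln probe lies at chromosome 5, 134729299 to 134729333 (GRCm38.p6), inside the span of Eln.

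Over background, Eln split the 3 deeper Pdpn-adjacent libraries. It stood at 1.50 times background in region 4 (exact Poisson 95% interval 1.24 to 1.80), the deepest Pdpn-adjacent library, and below the floor there. In regions 7 and 8 it stood at 4.66 (3.19 to 6.57) and 4.73 (3.33 to 6.52), next to 4.16 (3.79 to 4.55) and 4.25 (3.76 to 4.78) in SMA-adjacent regions 5 and 6. Eln beside podoplanin-stained vessels therefore ranged from near background to the level of the lower SMA-adjacent regions. These intervals, and those below, cover counting error only. Removal of duplicate reads is not stated in the labels or headers, and if duplicates remain the intervals are too narrow. In regions 2 and 11 the 2 counts gave intervals of 0.231 to 6.88 and 0.215 to 6.43 times background, and in region 3 the single count gave an upper bound of 2.09, so no level near that of region 4 could be told from that of region 7 in regions 2 and 11.

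A share within the 10 members needs no scaling for library size, but background counts remain in it. The above-background share of a region is the percentage of its endogenous counts left after the negative-probe mean is taken off for every probe. It was 26.0%, 30.0% and 41.4% in regions 4, 7 and 8, and 21.6% to 41.6% in SMA-adjacent regions. The part of background in the share of Eln was not tested. Eln made up 10.5% of the members' summed counts in region 4 (115 of 1091; exact 95% binomial interval 8.78% to 12.5%), 22.4% in region 7 (32 of 143; 15.8% to 30.1%) and 19.0% in region 8 (37 of 195; 13.7% to 25.2%). In SMA-adjacent regions the share of Eln was 23.0%, 22.1%, 21.6%, 34.8% and 24.6% in regions 1, 5, 6, 9 and 10. Region 4 thus had a share whose interval lay below those of all 5 SMA-adjacent regions, and the intervals of regions 7 and 8 overlapped those of regions 1, 5, 6 and 10. Eln was the single highest member in 2 of 6 Pdpn-adjacent regions (7 and 8) and in 5 of 5 SMA-adjacent regions. In 2 further Pdpn-adjacent regions, 2 and 11, it tied for highest at a count of 2. Region 3 held 1 Eln count, so its order of members could not be read. Set against Efemp1 in the same region, Eln had 0.605, 4.00 and 1.61 counts per Efemp1 count in regions 4, 7 and 8, against 1.72 to 6.13 in SMA-adjacent regions. In region 4 Efemp1 was the highest member, with 190 counts and 17.4% of the sum.

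**Figure D3:**
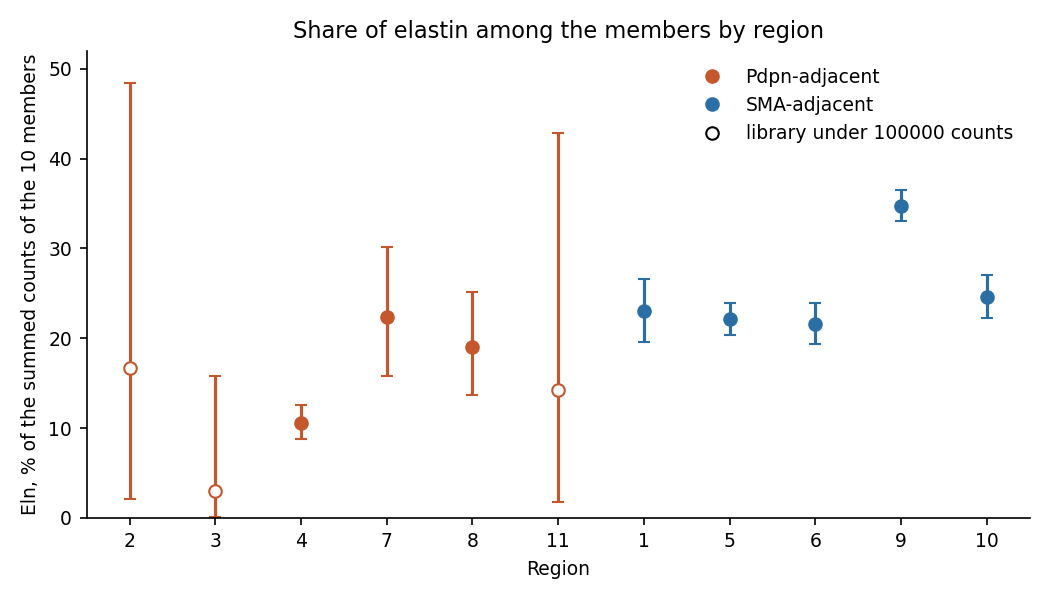
Share of Eln in the summed counts of the 10 members in each region (points; bars: exact 95% binomial intervals, counting error only; open circles: libraries under 100000 counts). Region 4 lies at 10.5%, the other deeper Pdpn-adjacent regions at 19.0% and 22.4%, and SMA-adjacent regions at 21.6% to 34.8%.

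Summed smooth muscle markers moved broadly with Eln over the 8 libraries above 100000 counts, but not over regions 2, 3 and 11. Of the 8 marker genes, 7 had fitted log2 fold changes below 0, and the highest value was 0.60. The summed level of 8 smooth muscle genes was 375, 740, 484, 1108, 747 and 377 CPM in Pdpn-adjacent regions 2, 3, 4, 7, 8 and 11, with 6, 1 and 6 of the 8 at a count of 1 in regions 2, 3 and 11. SMA-adjacent regions 1, 5, 6, 9 and 10 had sums of 1763, 1261, 1467, 5756 and 2871 CPM. The same SMA-adjacent regions, 9 and then 10, were highest for Eln and for these markers. They also had the highest above-background shares of that group, 39.8% and 41.6%, against 34.1%, 21.6% and 31.7% in regions 1, 5 and 6. The part of that share in the match was not tested. The 5 probes closest to Eln in log2 CPM over the 8 libraries above 100000 counts, among 3495 probes at a median of 2 or more times background there, were Myh11 (Pearson r = 0.96, Spearman's rho = 0.90), Flna (0.96 and 0.93), Tagln (0.95 and 0.90), Sparcl1 (0.95 and 0.79) and Acta2 (0.95 and 0.90). Myh11, Tagln and Acta2 encode contractile proteins of smooth muscle, and Flna encodes the actin cross-linker filamin A. No p is given for these r, because the regions fall into 2 chosen groups, some share a mouse, and the probes were ranked on them. Without the 2 regions farthest from the Eln median the 5 r ran from 0.88 for Myh11 to 0.97 for Flna.

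With the mean log2 level of the smooth muscle markers as a covariate, the fitted log2 fold change of Eln was 0.14 (edgeR's adjusted p = 0.979). Acta2, whose protein was stained to choose the SMA-adjacent regions, averaged 141 ± 111 CPM (SD, n = 6) in Pdpn-adjacent and 1098 ± 896 CPM (SD, n = 5) in SMA-adjacent regions, and all 6 of the first lay below all 5 of the second. The marker level and the group are thus largely confounded by how regions were chosen, and the part of smooth muscle in the Eln difference cannot be told apart from that of the group. Regions of 1 mouse may be counted more than once in that fit, so its p can be too small. Summed blood endothelial markers were 225 to 515 CPM in Pdpn-adjacent and 415 to 791 CPM in SMA-adjacent regions, macrophage markers 225 to 442 CPM in Pdpn-adjacent and 405 to 518 CPM in SMA-adjacent regions, and pericyte markers 150 to 442 CPM in Pdpn-adjacent and 279 to 417 CPM in SMA-adjacent regions. Adipocyte markers were at 375 to 15372 CPM in Pdpn-adjacent and 5770 to 15479 CPM in SMA-adjacent regions, and skeletal muscle markers at 255 to 21751 CPM in Pdpn-adjacent and 247 to 2895 CPM in SMA-adjacent regions. Luminal epithelial markers were at 308 to 785 CPM in Pdpn-adjacent and 329 to 452 CPM in SMA-adjacent regions, and basal epithelial markers at 185 to 890 CPM in Pdpn-adjacent and 191 to 237 CPM in SMA-adjacent regions. The part of these cells in the values of the members was not tested.

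**Figure D4:**
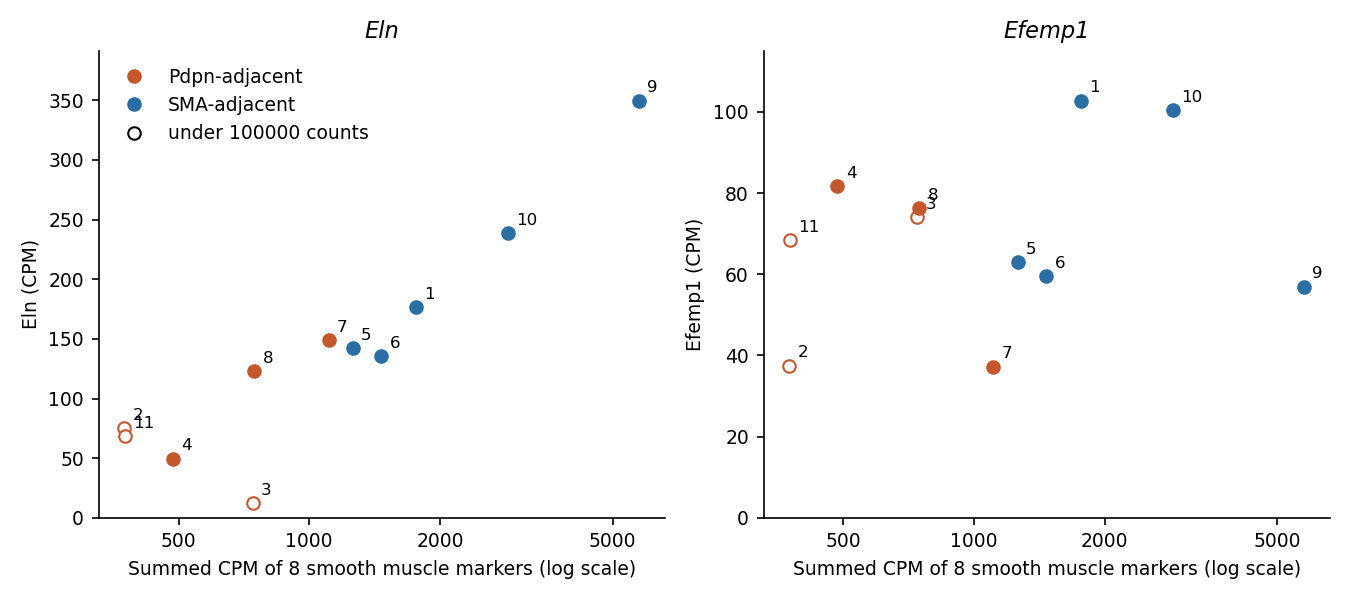
Eln (left) and Efemp1 (right) in CPM against the summed CPM of 8 smooth muscle markers (horizontal axis, log scale), with region numbers. Eln is highest in regions 9 and 10, where the markers reach 5756 and 2871 CPM, and Efemp1 is 57.0 CPM in region 9, 100.5 CPM in region 10 and 81.7 CPM in region 4.

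Both long fibulins had patterns near that of Eln over the same 8 regions (r = 0.92 for Fbln2 and 0.87 for Fbln1, and 0.80 for each without the 2 farthest). For the other members r with Eln ran from -0.08 for Efemp1 to 0.57 for Fbn1, with Fbln5 at 0.56. Without the 2 farthest it ran from -0.03 for Mfap4 to 0.81 for Fbln5, so that likeness was not particular to the long fibulins. The level of Fbln2 was 37.5, 24.7, 46.4, 126, 73.1 and 34.2 CPM in Pdpn-adjacent regions 2, 3, 4, 7, 8 and 11. The raw counts behind these values were 1, 2, 108, 27, 22 and 1, so regions 2 and 11 were at the table's minimum. SMA-adjacent regions 1, 5, 6, 9 and 10 held 101, 71.9, 79.4, 152 and 139 CPM. As with Eln, region 7 was the highest Pdpn-adjacent region, above 3 of 5 SMA-adjacent ones, and regions 9 and 10 were the highest of all. The means were 56.9 ± 37.5 CPM (SD, n = 6) in Pdpn-adjacent and 109 ± 35.5 CPM (SD, n = 5) in SMA-adjacent regions, with a log2 fold change of -0.76 ± 0.29 SE (edgeR's adjusted p = 0.713; exact permutation p = 0.0368). Fbln1, which encodes fibulin-1, a partner of fibronectin and of elastic fibres, averaged 44.9 ± 14.0 CPM in Pdpn-adjacent regions, against 64.4 ± 16.7 CPM in SMA-adjacent ones (fitted log2 fold change -0.53 ± 0.22 SE, edgeR's adjusted p = 0.760). Without region 4 the log2 fold change was -0.49 for Fbln2 and -0.23 for Fbln1, and with the smooth muscle covariate 0.38 for Fbln2 and 0.16 for Fbln1. Some regions sharing a mouse can make these p-values too small.

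The small fibulins, which bind tropoelastin or its cross-linking enzymes, had different fitted values. Fbln5 was at 12.3 to 44.3 CPM (median 32.1) in Pdpn-adjacent and at 42.7 to 83.5 CPM (median 69.8) in SMA-adjacent regions, and 5 of 6 Pdpn-adjacent regions lay below every SMA-adjacent one. Of these 5, regions 2, 3 and 11 were at a count of 1, the table's minimum, and regions 7 and 8 at 6 and 9 counts. The separation and the permutation p below thus rest on few counts. Region 4, at 44.3 CPM, overlapped SMA-adjacent region 5, at 42.7 CPM. Fbln5 averaged 31.0 ± 10.9 CPM (SD, n = 6) in Pdpn-adjacent regions, against 65.0 ± 17.8 CPM (SD, n = 5) in SMA-adjacent ones, with a log2 fold change of -0.75 ± 0.23 SE (edgeR's adjusted p = 0.452; exact permutation p = 0.00649, adjusted p = 0.610 over all probes). Fbln5 was above the floor in 0 of 6 Pdpn-adjacent and 2 of 5 SMA-adjacent regions, and its fold change was -1.21 without region 4, -0.44 with the above-background share as covariate and -0.04 with the smooth muscle covariate. The log2 fold change was -0.07 ± 0.22 SE for Efemp1 and -0.06 ± 0.17 SE for Efemp2 (edgeR's adjusted p = 1.00 each). Efemp1 ran from 37.2 to 81.7 CPM in Pdpn-adjacent and from 57.0 to 103 CPM in SMA-adjacent regions, and Efemp2 from 37.5 to 68.5 CPM in Pdpn-adjacent and 48.2 to 69.5 CPM in SMA-adjacent regions. The sign turned positive in 5 of 25 alternative fits for Efemp1 and in 7 of 24 for Efemp2. The differences among fibulins were not tested, and shared mice can make these p-values too small.

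Promoter sequence was compared between Fbln1 and Fbln5, 2 of the 5 members with an unadjusted p under 0.05, and Efemp2, whose fitted change was nearest 0. RefSeq entries on GRCm38.p6 were matched for 7 of the 10 members, not for Eln, Mfap4 or Mfap5, and these are the entries that lie wholly outside the gene's span. Each run gives the 250 bases before the start, 5′ to 3′ on the gene's strand, with motif matches on either strand in capitals.
Fbln1: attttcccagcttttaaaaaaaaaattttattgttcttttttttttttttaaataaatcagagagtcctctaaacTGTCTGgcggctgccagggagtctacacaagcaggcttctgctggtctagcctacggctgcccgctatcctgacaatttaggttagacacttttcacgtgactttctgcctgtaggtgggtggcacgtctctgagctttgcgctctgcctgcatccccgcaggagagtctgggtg
Fbln5: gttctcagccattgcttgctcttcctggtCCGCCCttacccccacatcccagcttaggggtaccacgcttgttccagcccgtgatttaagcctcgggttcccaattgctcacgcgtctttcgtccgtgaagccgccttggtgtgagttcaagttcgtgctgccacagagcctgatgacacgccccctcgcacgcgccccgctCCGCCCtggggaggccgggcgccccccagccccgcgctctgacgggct
Efemp2: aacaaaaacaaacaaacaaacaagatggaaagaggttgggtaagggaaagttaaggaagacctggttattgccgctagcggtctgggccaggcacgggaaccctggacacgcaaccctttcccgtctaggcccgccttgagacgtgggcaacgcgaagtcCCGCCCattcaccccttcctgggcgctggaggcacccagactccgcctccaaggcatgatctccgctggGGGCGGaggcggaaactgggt
They lie at chr15:85205699-85205948 (plus strand), chr12:101819120-101819369 (minus strand) and chr19:5473696-5473945 (plus strand).

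The motifs searched were the GC box GGGCGG bound by Sp1, the TATA box TATAAA, the AP-1 site TGANTCA, the SMAD box CAGACA and the CArG box bound by serum response factor. Fbln5 and Efemp2 each held 2 GC boxes and no other match, and Fbln1 held 1 SMAD box and no GC box, with 0 overlapping matches in each. GC boxes occur in 32.7% of all 32851 promoter entries of this length, SMAD boxes in 17.1%, TATA boxes in 12.4%, AP-1 sites in 6.75% and CArG boxes in 1.47%. The further entries of these genes differed: the second Fbln5 entry held 0 GC boxes and 1 SMAD box, the second Fbln1 entry 1 of each, and the other 2 Efemp2 entries 5 GC boxes each, 2 of whose matches overlapped another. Among members whose entries are not shown, Fbn1 and Fbln2 held 1 GC box each, Emilin1 held 1 SMAD box, and Efemp1 held 1 GC box and 1 AP-1 site. CArG boxes were found in 0 of the entries of members. The matches are descriptions of these windows.

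Of the microfibril genes, Mfap4 had the smallest edgeR p of the members, and a fold change that depended on region 4. Its level was 75.0, 37.0, 24.5, 32.6, 36.5 and 68.5 CPM in Pdpn-adjacent regions 2, 3, 4, 7, 8 and 11, and 36.9, 66.7, 54.6, 43.2 and 46.6 CPM in SMA-adjacent regions 1, 5, 6, 9 and 10. Regions 2 and 11, each at a count of 2, lay above every SMA-adjacent region, and regions 4, 7 and 8 below every one. Mfap4 averaged 45.7 ± 20.8 CPM (SD, n = 6) in Pdpn-adjacent regions, against 49.6 ± 11.5 CPM (SD, n = 5) in SMA-adjacent ones, while the fit, which weights the deep region 4, gave a log2 fold change of -0.81 ± 0.21 SE (edgeR's adjusted p = 0.237; exact permutation p = 0.522). It was -0.40 without region 4 and -0.05 with limma-voom. Mfap4 was the only member to pass in any alternative, at -1.01 with the above-background share as covariate (edgeR's adjusted p = 0.0125). At most Mfap4 reached 1.90 times background among Pdpn-adjacent regions, from 2 counts in region 2, against 1.95 times among SMA-adjacent ones. In regions 4, 7 and 8 it stood at 0.743, 1.02 and 1.41 times background. As regions of 1 mouse may be among those compared, these p-values can be too small.

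Fbn1, the microfibril backbone, averaged 46.0 ± 20.1 CPM (SD, n = 6) in Pdpn-adjacent regions, against 45.4 ± 11.1 CPM (SD, n = 5) in SMA-adjacent ones, with a log2 fold change of -0.22 ± 0.26 SE (edgeR's adjusted p = 1.00). The highest value, 83.0 CPM, came from Pdpn-adjacent region 8 (25 counts, 3.19 times background) and the lowest, 25.4 CPM, from Pdpn-adjacent region 4 (59 counts, 0.769 times). Without region 4 the fold change was 0.47, and without region 8 it was -0.60. Mfap5, which encodes a microfibril protein with an integrin-binding motif, averaged 40.2 ± 17.1 CPM in Pdpn-adjacent regions, against 51.4 ± 10.5 CPM in SMA-adjacent ones (fitted log2 fold change -0.14 ± 0.19 SE, edgeR's adjusted p = 1.00). Emilin1, an elastin-microfibril interface protein, was at 34.2 to 86.4 CPM in Pdpn-adjacent and 65.5 to 85.0 CPM beside SMA-stained structures (log2 fold change -0.30 ± 0.18 SE, edgeR's adjusted p = 0.926). In regions 3, 4, 7 and 8 it stood at 2.63, 2.07, 2.04 and 1.92 times background, next to 2.05 to 2.85 times in SMA-adjacent regions. The value of region 3, also the 86.4 CPM maximum, rested on 7 counts, and the 34.2 CPM minimum on a count of 1. Emilin1 was above the floor in 0 of 6 Pdpn-adjacent and 3 of 5 SMA-adjacent regions. The p-values here, too, can be too small where regions share a mouse.

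Other genes of the elastic fibre system did not pass the test. Of 12 genes of the microfibril scaffold and its fibrillin partners, 0 passed, 2 had an unadjusted p under 0.05 with lower fitted levels in Pdpn-adjacent regions (3.19% of all probes did), and the median log2 fold change was -0.10. Ltbp4, a latent transforming growth factor beta binding protein of elastic fibres, averaged 93.9 ± 67.4 CPM (SD, n = 6) in Pdpn-adjacent and 261 ± 126 CPM (SD, n = 5) beside SMA-stained structures (log2 fold change -1.26 ± 0.41 SE, edgeR's adjusted p = 0.587). The metalloprotease Adamts10 had -0.53 ± 0.21 SE and Ltbp1 -0.33 ± 0.22 SE (edgeR's adjusted p = 0.752 and 0.933).

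Of the 5 lysyl oxidase genes, whose enzymes cross-link elastin and collagen, 0 passed, 1 had an unadjusted p under 0.05 with a higher fitted level in Pdpn-adjacent regions (2.84% of all probes did), and the median was -0.04. Loxl4 had a log2 fold change of 0.40 ± 0.15 SE, Loxl1 -0.31 ± 0.21 SE and Loxl3 -0.06 ± 0.17 SE (edgeR's adjusted p = 0.676, 0.945 and 1.00). None of the 5 had a median above 2 times background in either group. Of 7 other fibulins and relatives of EMILIN, 0 passed (median log2 fold change -0.04). At an unadjusted p under 0.05, 2 were lower, against 3.19% of all probes. Mmrn2, an endothelial multimerin, was at -0.83 ± 0.30 SE, Hmcn2 at -0.36 ± 0.17 SE and Mmrn1 at -0.16 ± 0.21 SE (edgeR's adjusted p = 0.656, 0.807 and 1.00).

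Of 9 proteases that can degrade elastin, 8 were tested and 0 passed (median log2 fold change -0.07). At an unadjusted p under 0.05, 1 was lower, against 3.19% of all probes. Mmp9 had a log2 fold change of -0.44 ± 0.18 SE, the neutrophil elastase gene Elane 0.33 ± 0.19 SE and Mmp2 -0.34 ± 0.25 SE (edgeR's adjusted p = 0.760, 0.921 and 0.953). Of 10 receptor genes, 0 passed and 2 were lower at an unadjusted p under 0.05, against 3.19% of all probes (median -0.09). Itga8, an integrin subunit that binds RGD proteins, had -1.21 ± 0.31 SE (edgeR's adjusted p = 0.205), with 0.375 to 0.952 times background in Pdpn-adjacent regions, against 0.809 to 2.20 times beside SMA. Itgb1 was at -0.77 ± 0.27 SE, and Itgb5 at 0.21 ± 0.17 SE (edgeR's adjusted p = 0.647 and 0.979). Regions that share a mouse can make all of these p-values too small.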

How the data were processed

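Values as deposited are raw counts, 1 per probe and region: whole numbers whose totals differ between columns, with no normalization; the lowest value is 1, and steps from reads to counts are not given in the sources used here. Per the file headers, positions refer to GRCm38.p6. Background came from 210 negative-control probes, left out of library sizes and tests.

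The 19935 probes kept by filterByExpr were tested with edgeR 4.0.16 in R 4.3.3 (TMM factors, quasi-likelihood test, two-sided, Benjamini-Hochberg over all probes, threshold 0.05). SEs are those implied by the test. Each probe's mean log2 CPM (prior count 2) was also compared by exact permutation over all 462 splits, smallest possible p 0.00216. Alternatives used DESeq2 1.42.0 and limma 3.58.1 (voom), other scalings and filters, covariates, and left out each region. Named were all members, up to 3 genes of smallest p per role list, the 5 probes most like Eln, and Acta2. Members and lists were chosen with earlier results of these data known. Of 12 collected areas in the labels, 11 were analysed.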

Additional observations from a re-analysis of the deposited data

Results flagged for a closer look

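Among 24 groups of member values examined, 1 held a region set apart from the others of its group, and chance sets apart about 1 in 20 such groups. The share of Eln in the members' summed counts was 34.8% in SMA-adjacent region 9, and the next highest share in that group was 24.6%. The gap between them was 0.773 of the group's whole range, above the critical value of 0.71 for 5 samples. Region 9 also had the highest summed smooth muscle markers, at 5756 CPM; their part in the share was not tested.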

How the results depend on the processing

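Across 25 alternatives, 0 members passed in 24, and 1 (Mfap4, edgeR's adjusted p = 0.0125) passed with the above-background share as covariate. The log2 fold changes of Fbln5, Mfap4 and Emilin1 were below 0 in all alternatives that gave a value, though Fbln5 was at -0.04 with the smooth muscle covariate, and those of Eln, Fbln1 and Fbln2 in all but that covariate, where they were 0.14, 0.16 and 0.38; the cause was not tested. It also gave Fbn1 0.51, Mfap5 0.16 and Efemp2 0.27, and a member median of 0.15. After background subtraction the median was -0.74, on 8 regions, with Fbn1 at 0.59, Fbln1 at -1.13, Fbln5 at -2.04 and Mfap4 at -2.86. The floor filter kept 4 members. Signs were also positive for Fbn1 with DESeq2 (0.0106), limma-voom (0.31) and without regions 4 and 8 (0.0246), for Efemp1 with the floor filter (0.0640), for Efemp2 with limma-voom (0.18), array weights (0.12) and without regions 4 and 8 (0.10), and with the share covariate for Mfap5 (0.0137), Efemp1 (0.0840) and Efemp2 (0.0200). Leaving out 1 region at a time gave -1.61 to -1.02 for Eln, -0.60 to 0.47 for Fbn1, -0.29 to 0.0675 for Efemp1, -0.13 to 0.10 for Efemp2, -0.59 to -0.34 for the member median and 0 to 0 for members called. Limma-voom shifted the median of all probes to 0.14 and array weights to 0.11.

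Over all probes the calls were few: 2 higher and 0 lower. Without 1 region they ran from 1 to 12 higher and from 0 to 41 lower. They were 1 higher with upper-quartile factors, negative-probe scaling, the floor filter, array weights, background subtraction or without regions 2, 3 and 11, and 0 higher with limma-voom. DESeq2 gave 1 higher and 16 lower, library totals 1 and 1, robust spread 5 and 3, the share covariate 21 and 16, the smooth muscle covariate 4 and 4, and leaving out regions 4 and 8 gave 13 higher. With a floor at 1 SD, 64 of 110 member values were above it in place of 32. No paired analysis was possible because the groups share no region number and the labels tie no region to a mouse. Depth limits regions 2 and 11, where all 10 members rest on counts of 1 or 2, and region 3, where they rest on 1 to 7.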
